A study of Mus musculus with 10 samples.

Results

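The 35 genes described here encode the enzymes that build cholesterol and fatty acids, together with the proteins that set their transcription through the sterol regulatory element-binding proteins (SREBPs). They were taken by name from the 29700 gene rows of the count table, and fall into 19 genes of sterol synthesis in pathway order, 6 SREBP regulators and 10 genes of fatty acid synthesis. All 35 were measured, and all 35 passed the filter on low counts. The RNA came from peritoneal macrophages of C57BL/6 mice aged 8 weeks, elicited with thioglycollate and kept in culture. The 5 control libraries are labelled as untreated cells. The 5 libraries called ox-LDL were from cells primed with LPS, a bacterial lipopolysaccharide, at 100 ng/ml and then stimulated for 16 hours with 100 µg/ml of oxidized low-density lipoprotein. The comparison asked how the transcriptome of macrophages differed after this treatment. By these labels no library had LPS alone or ox-LDL alone, so the effects of the 2 agents cannot be told apart. The series' own design text and the study's description mention LPS priming without saying that the controls went without it, so it is not settled whether the controls were primed, and each difference here is between the cells as labelled. In bulk RNA fewer cells of a type cannot be told apart from less RNA per cell.

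SREBPs are made as precursors in the membrane of the endoplasmic reticulum. When membrane cholesterol is low, the escort protein SCAP carries them to the Golgi apparatus, where proteases release a fragment that enters the nucleus and switches on genes of lipid synthesis. When cholesterol is plentiful, INSIG proteins hold SCAP in the endoplasmic reticulum and this transcription stops. SREBP2, from Srebf2, mainly drives sterol genes, and SREBP1, from Srebf1, mainly drives fatty acid genes. Macrophages that take up modified lipoprotein receive cholesterol from outside the cell.

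The fragment binds sterol regulatory elements near gene start sites, often beside boxes bound by the factors NF-Y and SP1. The 250 bases upstream of the start site were read from RefSeq sequence of the GRCm38.p6 build for 28 of the 35 genes. No window was read for Stard4, Scd1, Sqle, Scd2, Fads1, Fdps and Fdft1. Among the 28 windows, 3 held CACNCCAC, a short form of the sterol regulatory element, on either strand. They belonged to Hmgcs1, Acat2 and Insig1, all of which fell in ox-LDL libraries, and they are printed here because they hold the letters in question. Each is given 5′ to 3′ on the strand of the gene, ending at the base before the start site, with CACNCCAC and the NF-Y box CCAAT in capitals on whichever strand they read, as their reverse complements where that is the opposite strand.
Hmgcs1, chr13:119690101-119690350, plus strand: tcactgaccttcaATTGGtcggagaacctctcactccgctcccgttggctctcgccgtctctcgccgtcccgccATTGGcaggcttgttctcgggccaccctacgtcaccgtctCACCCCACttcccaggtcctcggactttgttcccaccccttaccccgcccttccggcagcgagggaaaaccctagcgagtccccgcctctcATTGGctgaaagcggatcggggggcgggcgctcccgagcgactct
Acat2, chr17:12960726-12960975, minus strand: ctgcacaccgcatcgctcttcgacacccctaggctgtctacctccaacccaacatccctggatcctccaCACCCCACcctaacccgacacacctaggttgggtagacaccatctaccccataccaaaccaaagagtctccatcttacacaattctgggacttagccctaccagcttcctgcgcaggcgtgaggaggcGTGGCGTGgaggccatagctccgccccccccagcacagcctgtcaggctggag
Insig1, chr5:28071162-28071411, plus strand: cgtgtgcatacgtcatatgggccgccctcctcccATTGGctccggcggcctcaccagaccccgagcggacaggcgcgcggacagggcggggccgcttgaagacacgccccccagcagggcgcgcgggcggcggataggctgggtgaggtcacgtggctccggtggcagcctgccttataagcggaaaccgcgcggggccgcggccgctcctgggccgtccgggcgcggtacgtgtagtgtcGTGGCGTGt

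In the Hmgcs1 window the match lay 136 to 129 bases before the start site, between CCAAT boxes that began 176 and 45 bases before it. The Acat2 window held 2 matches, the nearer one 53 to 46 bases before the start site, and no CCAAT box. The Insig1 match lay 9 to 2 bases before the start site. CACNCCAC was found for 10.7% of the members with a window (3 of 28) and for 6.05% of all 27025 genes. The longer form TCACNCCAC, which contains it, was found in Hmgcs1 alone and in 1.22% of all genes. CCAAT was found in 22 of 28 members (78.6%) against 37.5% of all genes, and the SP1 box GGGCGG in 22 of 28 (78.6%) against 35.4%. The E-box CACGTG was found in 6 of 28 (21.4%) against 6.86%. CCAAT was present in 12 of the 14 windowed members that fell and in 10 of the 14 that did not. Matches are letters in a window and were not tested as binding sites.

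The libraries held 18826137 to 20283527 counts over genes, and levels are given as CPM, the counts scaled to a common depth, after normalization by the trimmed mean of M-values (TMM), with factors from 0.593 to 1.19. A gene is said to have risen or fallen where the edgeR quasi-likelihood test, adjusted over all 12654 genes tested, gave an adjusted p below 0.01. Of these genes 9.40% rose and 5.35% fell in ox-LDL libraries, and 1.93% fell by more than 2 on the log2 scale. Higher genes made up 63.7% of all calls, and 42.5% when limma was used on log2(FPKM + 1), where FPKM is fragments per kilobase of transcript at a common depth. The groups did not overlap for 11.6% of genes with the treated libraries higher and for 9.11% with the treated libraries lower. The median log2 fold change of all genes was 0.10. It shifted by -0.16 when libraries were scaled by their total alone, by -0.14 with upper-quartile scaling and by -0.22 with limma on FPKM. All 8 macrophage markers were expressed, with sums of 19630 to 46769 CPM in controls and 12146 to 47599 CPM in ox-LDL libraries. All 10 mesothelial and stromal markers were measured, summing to 13.3 to 45.5 CPM in controls and 72.9 to 118 CPM in ox-LDL libraries. Most of this sum was the stromal gene Dcn (9.33 to 38.3 against 56.6 to 91.6 CPM). The stromal gene Col1a1 was also higher in every ox-LDL library (1.07 to 4.56 against 8.65 to 29.7 CPM), and Col3a1 overlapped (1.39 to 4.13 against 2.05 to 6.39 CPM). Of the mesothelial genes, Wt1 was at 0.300 to 1.97 against 1.11 to 2.44 CPM and Upk3b at 0.257 to 0.940 against 0 to 0.239 CPM. Msln was under 0.3 CPM throughout. The sums for 9 measured neutrophil markers were 6.76 to 16.0 and 11.6 to 154 CPM, of which S100a8 alone was 5.39 to 14.2 and 10.8 to 152 CPM. The other neutrophil markers were under 2 CPM, with Mpo and Elane at 3 counts or fewer and Ltf (0.342 to 1.60 against 0 to 0.171 CPM) and Cxcr2 (0.332 to 0.670 against 0 to 0.0870 CPM) lower in ox-LDL libraries. The sums for B cells, T and NK cells, and eosinophils and mast cells stayed at or under 13.2 CPM. All 4 measured adipocyte markers, Adipoq, Plin1, Cidec and Retn, were at 3 counts or fewer in every library. Control replicate 5 was the lowest control for 27 of the 35 members, and ox-LDL replicate 2 had the lowest scaling factor, so results that rest on either are given with and without it. The part of mesothelial, stromal and neutrophil RNA in the results was not tested.

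The genes of sterol synthesis fell almost throughout the pathway, from the condensation of acetyl-CoA to the last desaturation. Of the 19 genes, 14 fell (73.7%, against 5.35% of all genes), none rose, and 5 did not pass the test (Mvd, Ggps1, Lss, Tm7sf2 and Dhcr7). The fall was by more than 2 on the log2 scale for 9 of them (47.4%, against 1.93%). For 15 genes (78.9%, against 9.11%) all ox-LDL libraries lay below all controls. The median log2 fold change was -2.07, and the range was -3.74 (Idi1) to 0.58 (Ggps1). Leaving out control replicate 5, which stood below the other controls for 18 of these 19 genes, left all 14 calls in place.

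**Figure D1:**
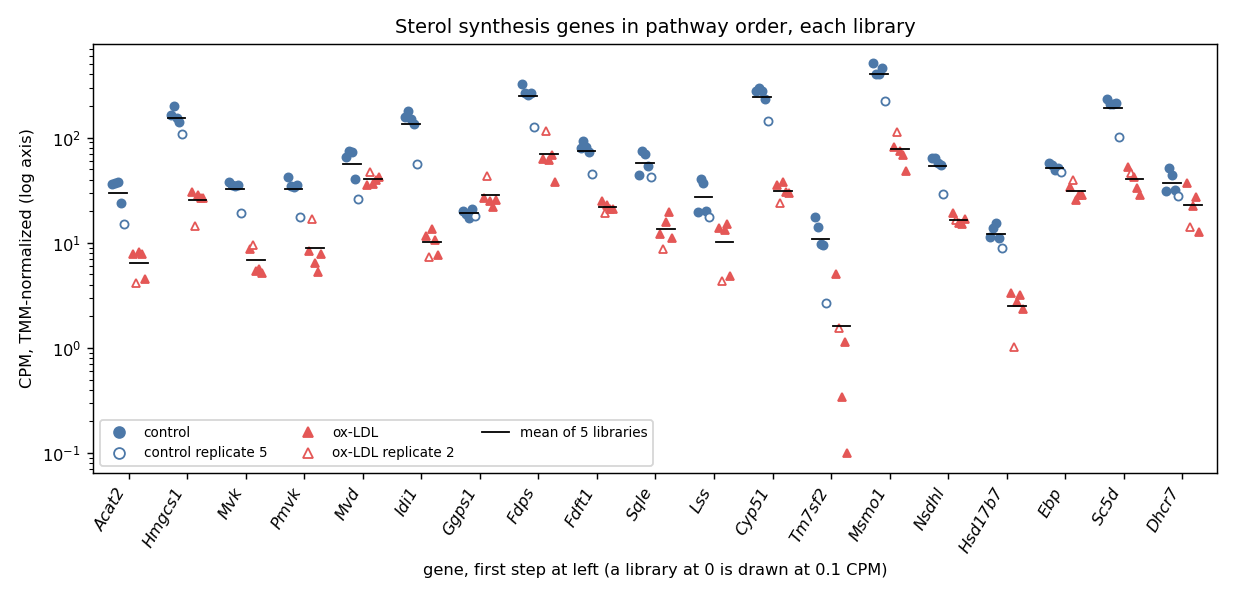
TMM-scaled CPM on a log axis for the 19 sterol synthesis genes in pathway order, 1 point per library (circles, 5 controls; triangles, 5 ox-LDL libraries; open symbols, control replicate 5 and ox-LDL replicate 2; bars, group means). The triangles lie below the circles without overlap for 15 genes, overlap them for Mvd, Tm7sf2 and Dhcr7, and lie above them for Ggps1.

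The upper pathway turns acetyl-CoA into mevalonate. Acat2, the cytosolic thiolase that joins 2 acetyl-CoA units, was at 36.2, 37.1, 37.8, 23.7 and 14.9 CPM in control replicates 1 to 5 and at 7.91, 4.11, 8.10, 7.80 and 4.48 CPM in ox-LDL replicates 1 to 5. Hmgcs1, the HMG-CoA synthase that makes the next intermediate, was at 165, 199, 155, 139.7 and 108 CPM in the controls and at 30.6, 14.4, 28.6, 26.5 and 26.6 CPM in the ox-LDL libraries. In both genes the highest ox-LDL library was below the lowest control, which was replicate 5 each time. The log2 fold change was -2.20 ± 0.31 (SE) for Acat2 (adjusted p = 0.000347). For Hmgcs1 it was -2.60 ± 0.25 (adjusted p = 3.18e-05), and ox-LDL replicate 2 was the lowest of its group by a wide gap.

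Mevalonate is then phosphorylated in turn by Mvk and Pmvk and decarboxylated by Mvd to the first isoprenoid unit. Mvk stood at 38.3, 35.8, 34.9, 35.3 and 19.2 CPM in the 5 controls and at 8.74, 9.504, 5.36, 5.60 and 5.20 CPM in the 5 ox-LDL libraries, in replicate order. Pmvk stood at 42.5, 34.4, 34.3, 35.3 and 17.5 CPM and at 8.39, 16.95, 6.44, 5.26 and 7.82 CPM in the same order. Controls 1 to 4 were close together for both kinases, with control replicate 5 well below them, and ox-LDL replicate 2 was the highest of its group. For Pmvk this left ox-LDL replicate 2 only just under control replicate 5, at 16.95 against 17.5 CPM. Mvk fell by 2.25 ± 0.26 (adjusted p = 9.19e-05) and Pmvk by 1.88 ± 0.33 (adjusted p = 0.00156) on the log2 scale. Mvd, between kinases and isomerase in the route, averaged 56.1 ± 21.7 CPM (SD, n = 5) in controls and 40.1 ± 4.68 CPM in ox-LDL libraries and did not pass the test (log2 fold change -0.48 ± 0.27, adjusted p = 0.208). Its control libraries ran from 26.3 to 75.4 CPM and covered the whole range of the ox-LDL libraries.

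The largest fall of the 35 genes was at Idi1, the isomerase that interconverts the 2 isoprenoid building blocks (mm9 chr13:8884852-8891641, plus strand). Its level was 158, 179, 151, 134 and 56.1 CPM in control replicates 1 to 5 and 11.7, 7.28, 13.5, 10.53 and 7.70 CPM in ox-LDL replicates 1 to 5. Even control replicate 5, at 56.1 CPM, was above every ox-LDL library. The log2 fold change was -3.74 ± 0.33 (adjusted p = 2.22e-05), which left 7.48% of the control level. Fdps, which joins isoprenoid units into farnesyl diphosphate, fell by 1.84 ± 0.32 (adjusted p = 0.00145). Its libraries were at 321, 268, 256, 263 and 126 CPM in controls and at 63.1, 115, 60.9, 69.0 and 37.5 CPM after treatment, and the highest treated library (replicate 2) lay just under the lowest control (replicate 5).

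Ggps1 makes geranylgeranyl diphosphate, an isoprenoid used for protein prenylation that leaves the sterol route. It was the single member of the 35 for which all ox-LDL libraries stood above all controls, while this held for 11.6% of all genes. Its levels were 20.2, 18.96, 17.1, 20.9 and 17.9 CPM in the controls and 26.6, 42.8, 25.0, 21.9 and 25.6 CPM in the ox-LDL libraries. The log2 fold change of 0.58 ± 0.20 did not pass the test (adjusted p = 0.0473). Without ox-LDL replicate 2, its highest library, the value was 0.34 (adjusted p = 0.0631). Exons of Ggps1 overlap those of Arid4b on the opposite strand in the mm9 annotation, and it is not stated whether counting used strand.

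Farnesyl units are committed to sterols by squalene synthase (Fdft1), oxidized by squalene epoxidase (Sqle) and closed into lanosterol by Lss. Fdft1 was at 79.8, 93.3, 81.5, 72.6 and 44.9 CPM in the controls and at 25.1, 19.01, 22.7, 21.2 and 20.9 CPM in the ox-LDL libraries, a fall of 1.77 ± 0.20 (adjusted p = 9.73e-05). The treated libraries of Fdft1 lay close together, within 19.01 to 25.1 CPM, and the controls spread over 44.9 to 93.3 CPM. Sqle was at 44.6, 74.2, 70.0, 53.7 and 41.9 CPM in the controls and at 12.1, 8.82, 15.8, 19.5 and 11.2 CPM in the ox-LDL libraries, so the groups were well apart, and it fell by 2.07 ± 0.26 (adjusted p = 0.000156). Lss was at 19.5, 40.5, 37.1, 20.2 and 17.7 CPM in the controls and at 13.8, 4.37, 13.3, 15.02 and 4.84 CPM in the ox-LDL libraries. Its groups did not overlap, but controls 1, 4 and 5 lay close above ox-LDL replicates 1, 3 and 4. The log2 fold change of -1.39 ± 0.40 did not pass the test (adjusted p = 0.0221), and it did pass with DESeq2 and after removal of each library's trend with gene length. Exons of Fdft1 overlap Ctsb, a highly expressed protease gene of macrophages, on the opposite strand, and those of Lss, Scap and Acaca overlap genes known only by clone or model names there.

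Lanosterol becomes cholesterol through removal of methyl groups and shifts of double bonds. Cyp51, the lanosterol demethylase (mm9 chr5:4081145-4104746, minus strand), had the second largest fall of the members. It stood at 275, 295, 281, 235 and 143 CPM in control replicates 1 to 5 and at 35.4, 23.9, 37.9, 30.2 and 29.7 CPM in ox-LDL replicates 1 to 5. The lowest control, replicate 5 at 143 CPM, was far above the highest ox-LDL library at 37.9 CPM. The log2 fold change was -2.97 ± 0.24 (adjusted p = 1.42e-05). Tm7sf2, a sterol reductase, was listed at 17.6, 14.2, 9.80, 9.48 and 2.69 CPM in the controls and at 5.09, 1.54, 0.341, 1.15 and 0 CPM in the ox-LDL libraries, with 0 counts in ox-LDL replicate 5. Control replicate 5 fell inside the treated range, and the fitted log2 fold change of -2.70 ± 0.83 had the largest standard error of the 35 and did not pass (adjusted p = 0.0312). It did pass in 4 of 22 alternatives: DESeq2, limma on FPKM, the replicate block and without ox-LDL replicate 1 (-3.87, adjusted p = 0.00444). Its exons overlap a gene on the same strand, so reads could be split between them.

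Msmo1, Nsdhl and Hsd17b7 together remove the remaining methyl groups. Msmo1 was at 508, 408, 399.9, 459.9 and 221 CPM in the controls and at 80.9, 113, 74.4, 69.1 and 48.6 CPM in the ox-LDL libraries. Nsdhl was at 63.7, 64.6, 57.3, 55.4 and 29.4 CPM in the controls and at 19.05, 16.4, 15.5, 15.2 and 16.7 CPM in the ox-LDL libraries. Hsd17b7, the least abundant of the 3, was at 11.4, 13.8, 15.5, 11.02 and 8.86 CPM in the controls and at 3.35, 1.03, 2.73, 3.21 and 2.33 CPM in the ox-LDL libraries, down to 12 counts in replicate 2. In all 3 genes the groups were separate. Msmo1 fell by 2.37 ± 0.29 (adjusted p = 0.000146). Nsdhl fell by 1.70 ± 0.22 (adjusted p = 0.000186), and Hsd17b7 fell by 2.24 ± 0.30 (adjusted p = 0.000242).

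The last steps shift and reduce ring double bonds. Ebp, the sterol isomerase, fell least of the 14 sterol genes called, from 58.0, 54.5, 48.9, 51.2 and 47.3 CPM in the controls to 33.7, 39.3, 25.8, 28.6 and 28.4 CPM in the ox-LDL libraries (log2 fold change -0.74 ± 0.16, adjusted p = 0.00524). The controls of Ebp lay within 47.3 to 58.0 CPM and control replicate 5 was close to the rest. The call for Ebp was lost in 10 of 23 alternatives, including the replicate block (adjusted p = 0.0172) and 7 of the 10 analyses with 1 library left out (adjusted p at most 0.0192). Sc5d, the sterol desaturase, was at 233, 210.3, 208, 215 and 102 CPM in the controls and at 52.7, 45.7, 42.3, 33.0 and 28.7 CPM in the ox-LDL libraries, with control replicate 5 far under the other controls and far above the treated libraries. It fell by 2.26 ± 0.27 (adjusted p = 0.000113). Dhcr7, a reductase of the final step, averaged 37.3 ± 10.0 CPM in controls and 22.7 ± 10.1 CPM in ox-LDL libraries and did not pass the test (-0.71 ± 0.30, adjusted p = 0.102). Ox-LDL replicate 1, at 37.2 CPM, was above controls 1, 4 and 5.

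**Figure D2:**
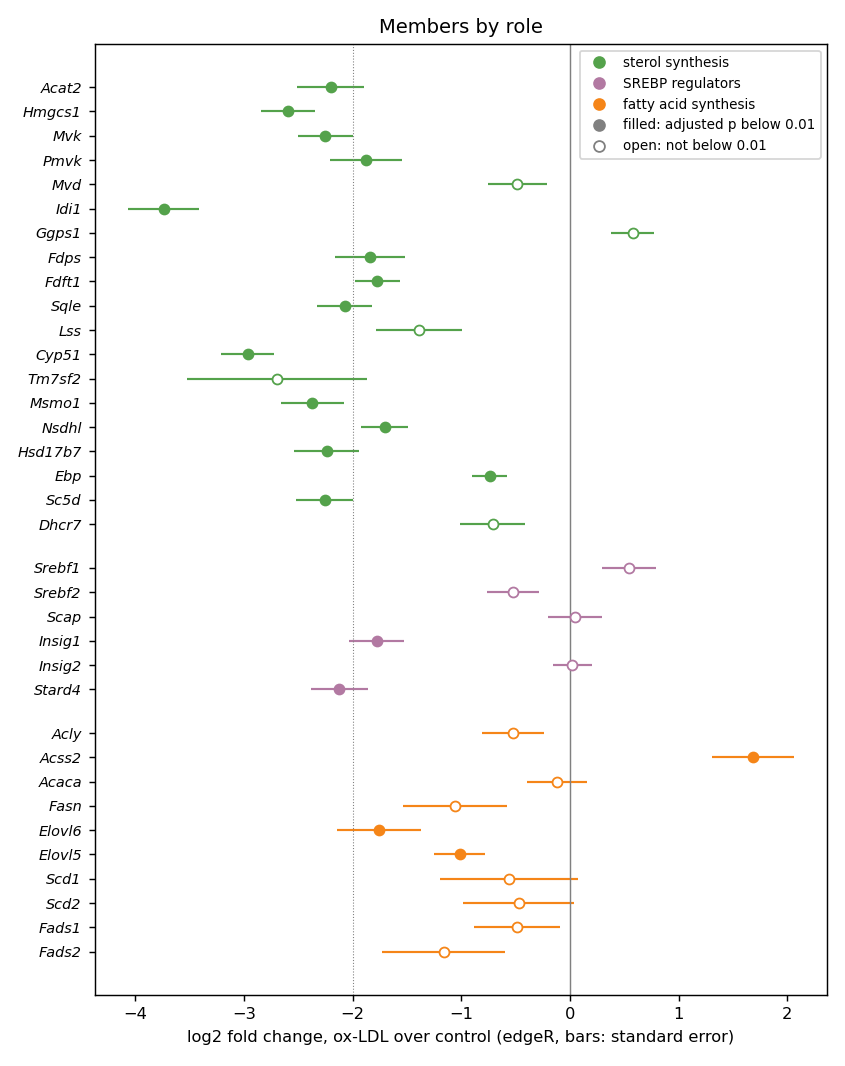
Log2 fold change of ox-LDL over control (x axis, edgeR; bars, SE; n = 5 libraries a group) for each of the 35 genes, colored by role and filled where the adjusted p was below 0.01; the dotted line marks -2. Sterol genes spread from -3.74 to 0.58 with 14 of 19 filled on the left, and Acss2 is the only filled point on the right.

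On a scale corrected for gene length, the order of the sterol genes differed between the groups. In FPKM, Msmo1 was the highest of the 19 in controls at 249 ± 55.4 (SD, n = 5) and Fdps came next at 228 ± 58.4. These 2 levels did not differ beyond their spread. Both remained in the top places in ox-LDL libraries, at 42.4 ± 12.1 for Msmo1 and 55.5 ± 16.0 for Fdps. Cyp51 went from the fourth place (62.4 ± 17.3 FPKM) to place 11 (7.38 ± 2.77 FPKM). Idi1 went from the fifth place (53.0 ± 19.6 FPKM) to place 15 (3.70 ± 1.66 FPKM). Of the 5 genes that did not pass the test, 3 moved up by several places: Mvd from place 7 to 3, Dhcr7 from place 13 to 4, and Ggps1 from place 17 to 7. Neighboring places in controls were mostly within 1 SD, and no test was made of the order.

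Among the regulators, Insig1 and Stard4 fell, while the genes of the transcription factors, their escort and Insig2 did not pass the test in the main analysis. Of the 6 regulators, 2 fell (33.3%, against 5.35% of all genes) and none rose. The median log2 fold change was -0.25, and it was -0.41 without ox-LDL replicate 4 and -0.40 with library size scaling. Insig1, which retains SCAP when sterols are plentiful and is itself a target of SREBPs (mm9 chr5:28397952-28405201, plus strand), was at 173, 152, 167, 164 and 75.7 CPM in the controls and at 50.6, 35.2, 47.9, 48.1 and 31.2 CPM in the ox-LDL libraries. Controls 1 to 4 lay within 152 to 173 CPM and control replicate 5 lay between them and the treated libraries. Insig1 fell by 1.78 ± 0.25 (adjusted p = 0.000394). Stard4, a cytosolic sterol transport protein, was at 34.1, 43.6, 40.4, 25.4 and 21.5 CPM in the controls and at 10.7, 5.05, 8.05, 7.99 and 5.97 CPM in the ox-LDL libraries, with no overlap, and fell by 2.12 ± 0.26 (adjusted p = 0.000165). Insig2, the related retention protein that is controlled apart from SREBPs, was at 34.0, 25.7, 23.96, 21.0 and 22.2 CPM in the controls and at 27.8, 29.7, 27.1, 21.7 and 22.4 CPM in the ox-LDL libraries. The groups of Insig2 overlapped throughout (log2 fold change 0.02 ± 0.18, adjusted p = 0.947).

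Srebf1 stood at 11.7, 21.3, 19.5, 16.2 and 20.9 CPM in the controls and at 25.8, 15.9, 25.5, 39.7 and 23.7 CPM in the ox-LDL libraries. Only ox-LDL replicate 2 was inside the control range, and the difference did not pass the test (0.55 ± 0.25, adjusted p = 0.128). Exons of Srebf1 overlap Rai1 on the opposite strand. Srebf2 stood at 34.7, 60.9, 57.1, 43.2 and 53.8 CPM in the controls and at 29.4, 23.0, 37.4, 52.3 and 31.5 CPM in the ox-LDL libraries. Its groups overlapped, with control replicate 1 low and ox-LDL replicate 4 high (-0.52 ± 0.24, adjusted p = 0.126). With each library's trend with gene length removed, Srebf2 did pass the test (-0.66, adjusted p = 0.00417). Scap, the escort, was at 9.90, 12.5, 12.02, 9.53 and 13.3 CPM in the controls and at 12.5, 6.68, 14.7, 16.5 and 8.601 CPM in the ox-LDL libraries, with the treated libraries on both sides of the controls (0.05 ± 0.25, adjusted p = 0.917).

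Related genes were also compared as log2 ratios within each library, which depend little on scaling between libraries, for 5 pairs by a 2-sided exact permutation test adjusted over the 5 (smallest possible p 0.00794). For these ratios the threshold was an adjusted p below 0.05. The log2 ratio of Srebf1 to Srebf2 was -1.53, -1.49, -1.53, -1.39 and -1.35 in control replicates 1 to 5 and -0.19, -0.52, -0.54, -0.39 and -0.40 in ox-LDL replicates 1 to 5. The ratio was higher in all 5 ox-LDL libraries than in any control, by 1.05 on the log2 scale, with group means of -1.46 ± 0.0843 and -0.41 ± 0.142 (SD, n = 5; exact permutation p = 0.00794, adjusted p = 0.0198). Neither gene passed the test alone in the main analysis. The log2 ratio of Insig1 to Insig2 was 2.33, 2.54, 2.77, 2.94 and 1.75 in the controls and 0.85, 0.24, 0.81, 1.13 and 0.47 in the ox-LDL libraries. It was lower in all 5 ox-LDL libraries, with a difference of -1.76 (0.70 ± 0.349 against 2.47 ± 0.462 in controls, SD, n = 5; exact permutation p = 0.00794, adjusted p = 0.0198).

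**Figure D3:**
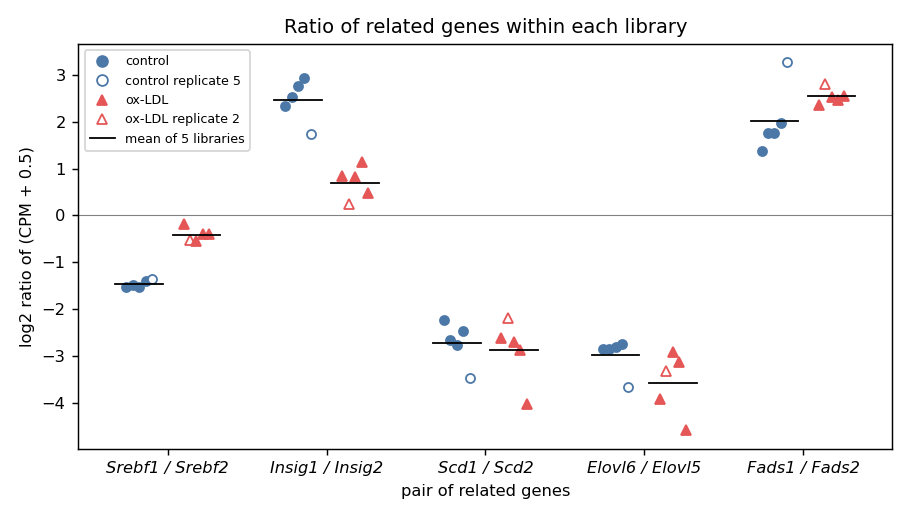
Log2 ratio of 2 related genes within each library (y axis, CPM + 0.5) for 5 pairs, 1 point per library (circles, controls; triangles, ox-LDL; open symbols, control replicate 5 and ox-LDL replicate 2; bars, means of 5). The groups are separate for Srebf1 / Srebf2 (means -1.46 and -0.41) and Insig1 / Insig2 (means 2.47 and 0.70), and overlap for the other pairs.

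In fatty acid synthesis only 3 of 10 genes passed the test, in both directions. Acss2 rose, Elovl6 and Elovl5 fell, and 7 did not pass the test. The 2 that fell (20%, against 5.35% of all genes) were also the 2 without overlap between the groups (20%, against 9.11% of all genes with ox-LDL lower). The 1 that rose was 10% of the list, near the 9.40% of all genes. The median log2 fold change was -0.54, and it was -0.92 without ox-LDL replicate 1. Over all 35 genes this made 18 that fell (51.4%), 1 that rose (2.86%, against 9.40% of all genes) and 16 that did not pass the test. The difference between the sterol and the fatty acid genes was not tested.

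Acetyl-CoA for lipid synthesis is made from citrate by Acly and from acetate by Acss2. Acss2 (mm9 chr2:155343684-155411460, plus strand) was at 7.74, 11.6, 11.6, 7.16 and 5.17 CPM in the controls and at 36.9, 9.25, 34.1, 39.4 and 19.4 CPM in the ox-LDL libraries. Ox-LDL replicate 2 lay inside the control range, and the other 4 treated libraries were above all controls. The log2 fold change was 1.69 ± 0.38 (adjusted p = 0.00626), and it was 1.87 (adjusted p = 0.000331) without ox-LDL replicate 2 and 1.54 (adjusted p = 0.0159) without control replicate 5. The call was lost in 14 of 23 alternative analyses. Exons of Acss2 overlap Ggt7 and Gss on the opposite strand. Acly averaged 72.8 ± 23.1 CPM in controls and 50.6 ± 15.4 CPM after treatment (SD, n = 5), with overlap (-0.52 ± 0.29, adjusted p = 0.199).

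Acaca carboxylates acetyl-CoA and Fasn builds the chain. Acaca averaged 21.7 ± 6.97 CPM in controls and 19.9 ± 6.33 CPM in ox-LDL libraries (-0.12 ± 0.28, adjusted p = 0.791). Fasn averaged 12.97 ± 6.31 CPM and 6.19 ± 3.97 CPM (-1.06 ± 0.48, adjusted p = 0.123). With the length trend removed Fasn did pass, at -1.53 (adjusted p = 0.00838). Its lowest library, ox-LDL replicate 5, was at 1.43 CPM and its highest treated library, replicate 4, at 12.2 CPM, so the spread within the treated group was wide.

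The 2 elongases fell. Elovl6, which extends saturated chains, was at 5.97, 9.89, 11.6, 7.06 and 4.21 CPM in the controls and at 2.44, 1.80, 3.02, 3.30 and 0.776 CPM in the ox-LDL libraries (log2 fold change -1.76 ± 0.39, adjusted p = 0.0057). Its groups did not overlap, but the call was lost in 6 of 22 alternatives: library size scaling, and without control replicate 2, 3 or 4 or ox-LDL replicate 1 or 3 (adjusted p at most 0.0171). Elovl5, which extends polyunsaturated chains, was at 46.5, 74.7, 84.6, 49.9 and 59.6 CPM in the controls and at 44.1, 22.4, 26.1, 33.0 and 30.3 CPM in the ox-LDL libraries (-1.01 ± 0.23, adjusted p = 0.00709). The groups of Elovl5 were close, with ox-LDL replicate 1 at 44.1 CPM just under control replicate 1 at 46.5 CPM, and its adjusted p was 0.0129 without control replicate 5. The Elovl5 call was lost in 11 of 23 alternatives. The log2 ratio of Elovl6 to Elovl5 ran from -3.67 to -2.74 in controls and from -4.59 to -2.92 in ox-LDL libraries. The difference of -0.59 did not pass the test (exact permutation p = 0.127, adjusted p = 0.212). Without control replicate 5, the lowest control, it was -0.76 (adjusted p = 0.0198).

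The desaturases Scd1 and Scd2, which make monounsaturated fatty acids and lie near each other on chromosome 19, varied more within groups than between them. Scd1 averaged 21.4 ± 11.7 CPM in controls and 14.4 ± 10.8 CPM in ox-LDL libraries (-0.56 ± 0.64, adjusted p = 0.56). Scd2 averaged 136 ± 72.9 CPM and 97.8 ± 64.7 CPM (-0.47 ± 0.51, adjusted p = 0.542). Their log2 ratio differed by -0.16 (exact permutation p = 0.667), with the lowest ratios in control replicate 5 (-3.48) and ox-LDL replicate 5 (-4.02). Fads1 and Fads2, the desaturases of polyunsaturated fatty acids, also lie near each other on chromosome 19. Fads1 averaged 49.9 ± 16.0 CPM in controls and 35.6 ± 19.6 CPM in ox-LDL libraries (-0.49 ± 0.40, adjusted p = 0.4). Fads2 averaged 13.5 ± 7.07 CPM and 5.96 ± 3.92 CPM (-1.16 ± 0.56, adjusted p = 0.149). The ratio of Fads1 to Fads2 was 0.52 higher in ox-LDL libraries (exact permutation p = 0.175, adjusted p = 0.218), and 0.83 higher without control replicate 5 (adjusted p = 0.0198).

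**Figure D4:**
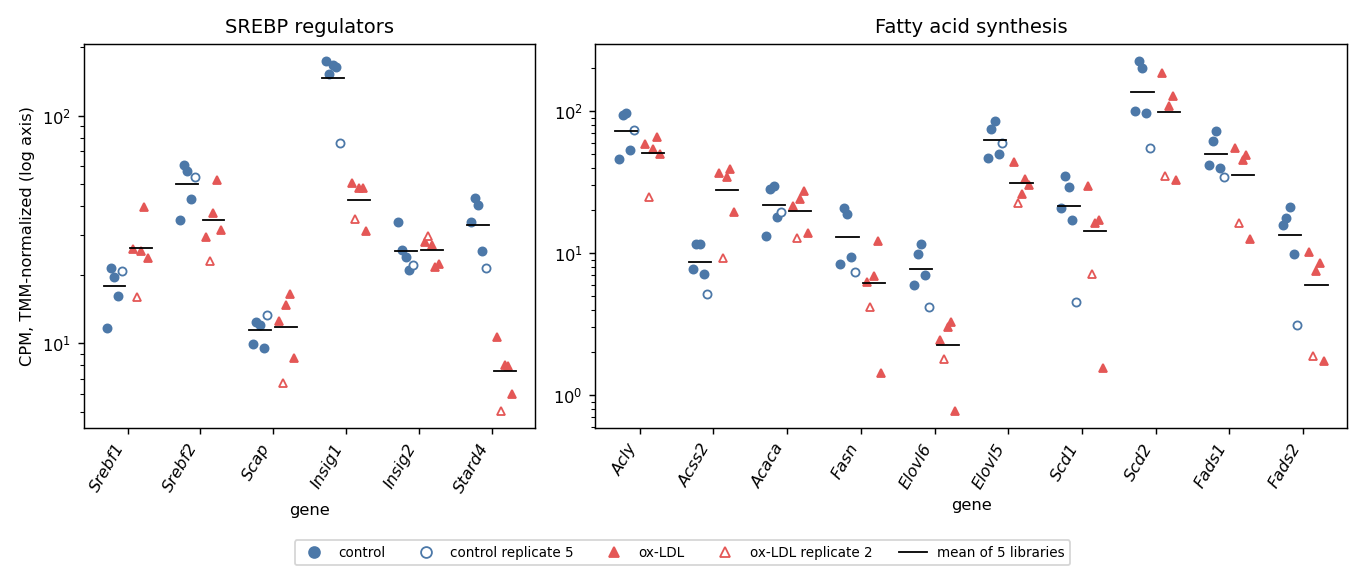
TMM-scaled CPM on log axes for the 6 SREBP regulators (left) and the 10 fatty acid genes (right), 1 point per library (symbols as in the plot of sterol genes; bars, group means). The groups are separate for Insig1, Stard4, Elovl6 and Elovl5, and for Acss2 all triangles but ox-LDL replicate 2 lie above the circles.

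The members also differed between libraries of a group. The 27 genes with control replicate 5 as the lowest control were 18 of 19 sterol genes, 2 of 6 regulators and 7 of 10 fatty acid genes, while it was the lowest for 26.6% of all genes. Its level was a median of 52.7% of the mean of controls 1 to 4 over the sterol genes (range 21.1% to 92.8%), 53.0% over the fatty acid genes and 97.3% over the regulators, against 98.5% over all genes. As the mean of log2(CPM + 0.5) over the sterol genes, controls 1 to 4 stood at 5.85 to 6.17, control replicate 5 at 5.15 and the ox-LDL libraries at 3.68 to 4.33, so it lay between the groups and nearer to the controls. Over the fatty acid genes the same mean ran from 3.93 to 5.25 in controls, and in ox-LDL libraries it was 3.10 in replicate 5, 3.31 in replicate 2 and 4.43 to 4.70 in replicates 1, 3 and 4. Ox-LDL replicate 2 was the lowest of its group for 16 members (38.0% of all genes) and ox-LDL replicate 5 for 13 (24.9%). In ox-LDL replicate 2 and in controls 1 and 4 longer genes read lower than in the other libraries (Spearman correlation across genes of the deviation from the mean with length, -0.56, -0.44 and -0.37, against 0.12 to 0.42 elsewhere; genes are not independent replicates). After removal of this trend 21 members fell and 1 rose. Of all 12654 genes tested 1163 then fell and 1712 rose, against 677 and 1189 in the main analysis. The part of these library differences in the other results was not tested.

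**Figure D5:**
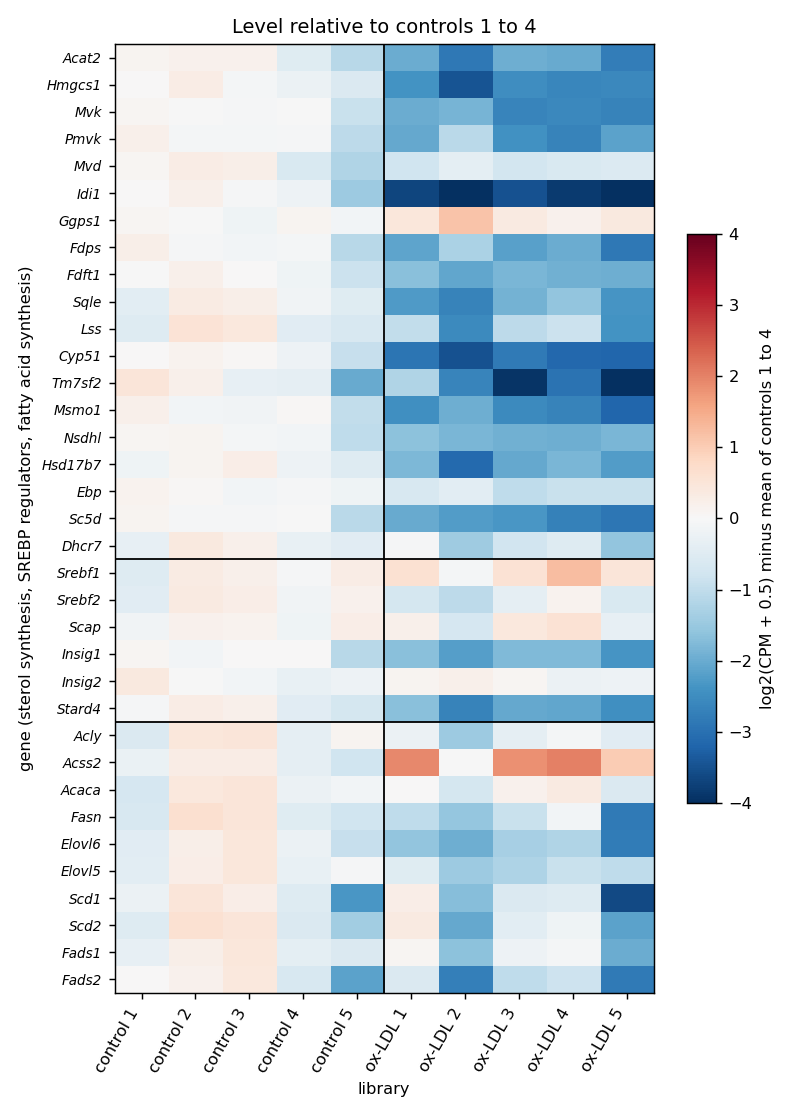
Log2(CPM + 0.5) of each member (rows, by role) in each of the 10 libraries (columns), minus its mean over controls 1 to 4; blue is lower, red is higher, and the color scale ends at -4 and 4. The sterol rows are blue in all ox-LDL libraries except for Ggps1, Mvd, Ebp and Dhcr7, which are paler or red, and mostly pale blue in control replicate 5.

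Around these members, 46 of 55 listed genes of the same pathways were tested, and 6 fell (13.04%, against 5.35% of all genes) and 2 rose (4.35%, against 9.40%), with a median log2 fold change of -0.02. The list of 14 genes of SREBP processing holds the Golgi proteases Mbtps1 and Mbtps2 and the subunits of NF-Y. None of the 14 fell (0%, against 5.35% of all genes) and 1 rose (7.14%, against 9.40%), so for a list of this size the counts were near those of all genes. The gene that rose was Faf2, a ubiquitin-binding protein of the endoplasmic reticulum, by 0.67 ± 0.16 (adjusted p = 0.00883). Of the 10 tested SREBP target genes outside the synthesis steps, 4 fell (40%, against 5.35% of all genes). Only 1 rose (10%), a share near the 9.40% of all genes. Aacs, which activates acetoacetate for lipid synthesis, fell from 15.3 ± 2.95 CPM to 5.41 ± 1.70 CPM (SD, n = 5; -1.49 ± 0.25 SE, adjusted p = 0.0012). Pcyt2, of phosphatidylethanolamine synthesis, changed by -1.33 ± 0.24 (adjusted p = 0.00155). Lpin1, a phosphatidate phosphatase, changed by -1.94 ± 0.40 (adjusted p = 0.00397), and Mid1ip1, an activator of acetyl-CoA carboxylase, by -1.06 ± 0.22 (adjusted p = 0.00432). Me1, the cytosolic malic enzyme that supplies NADPH, went the other way, with 0.773 to 2.01 CPM in controls and 4.54 to 12.9 CPM in ox-LDL libraries (3.09 ± 0.39, adjusted p = 0.0002).

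Among 9 tested genes of fatty acid elongation and desaturation only Degs1, a ceramide desaturase, passed (11.1%, against 5.35% of all genes that fell), at -0.92 ± 0.20 (adjusted p = 0.00459). Among 13 genes of sterol reduction and the isoprenoid branch only Lbr passed (7.69%), a share near that of all genes. Lbr, a nuclear envelope protein that is also a sterol reductase and carries out the same reduction as Tm7sf2, was at 10.7 to 14.1 CPM in controls and 3.42 to 4.30 CPM in ox-LDL libraries, a fall of 1.61 ± 0.17 (adjusted p = 6.42e-05). Dhdds and Nus1, of dolichol synthesis, another branch that leaves the sterol route, were 0.54 ± 0.16 and 0.64 ± 0.19 on the log2 scale and did not pass the test (adjusted p = 0.0293 and 0.0282). Fnta and Hsd17b4 of the same list went the other way, at -0.67 ± 0.18 and -0.74 ± 0.21, and did not pass either (adjusted p = 0.0169 and 0.0204). Of the 13 genes 6 had a negative log2 fold change, and the median was 0.02.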

How the data were processed

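Total RNA of mouse peritoneal macrophages was sequenced on a BGISEQ-500 in 10 libraries (5 control and 5 ox-LDL). The series describes the 5 of each group as biological replicates, without saying whether each is 1 mouse or 1 culture. Per the labels, the authors' processing named FastQC, HISAT2 2.0.5, SAMtools 1.4, StringTie and the mm9 build; the counting step, its annotation and its use of strand are not given in the sources used here. The authors deposited expected counts per gene (13.6% of values not whole, rounded here) and FPKM values per gene. Of 39488 rows, 9788 circular RNA rows were left out. Of 23382 NCBI gene identifiers, 22818 were paired with a symbol, and 6318 identifiers without a paired symbol stayed in the fit unnamed.

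Genes passing filterByExpr (12654) were tested with edgeR 4.0.16 (TMM, robust quasi-likelihood test, Benjamini-Hochberg over all genes, adjusted p below 0.01). In data simulated for this comparison over 12654 genes, with 50 changed genes per fold size, it recovered 7, 38, 49 and 49 at absolute log2 folds of 1, 2, 3 and 4, with 2 false calls. Smaller changes were thus often missed in the simulation. Far fewer genes were changed there than the 1866 called in the data, which makes the adjustment stricter, so recovery in the data may be higher. Ratios of gene pairs used exact permutation tests (SciPy 1.17.1) with 0.5 CPM added. Members at under 10 counts in some library numbered 1 (Tm7sf2). The alternatives were DESeq2 1.42.0, limma-voom and limma on log2(FPKM + 1) (limma 3.58.1), other scalings and filters, NCBI genes alone, all rows with circular RNA rows, a replicate block, removal of each library's trend with gene length, and each library left out. Analyses without control replicate 5 together with ox-LDL replicate 2 or 5 were chosen after seeing the data. The text accounts for every member. It gives each library's value for members past the test or without overlap and for Srebf1, Srebf2, Scap, Insig1 and Insig2. A few single values of other members were chosen after they were seen, as were the pathway neighbors Dhdds, Nus1, Fnta and Hsd17b4. The members and lists were chosen with earlier results of these data known. Gene positions and exon overlaps are from GENCODE on mm9, which gave no position for Hmgcs1 here. Promoters are from RefSeq on GRCm38.p6.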

Additional observations from a re-analysis of the deposited data

Results flagged for a closer look

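A library was set apart where its gap to the nearest other library of its group, as a share of the whole range of the group's 5 values, was above 0.71. Of 80 groups examined (35 genes and 5 ratios in each of 2 groups), 8 passed, and chance alone would give about 4. Control replicate 5 was the lowest of its group for Mvk (gap 0.823 of the range), Sc5d (0.809), Insig1 (0.785), Nsdhl (0.740) and the log2 ratio of Elovl6 to Elovl5 (0.869). Ox-LDL replicate 2 was the lowest of its group for Hmgcs1 (0.749) and the highest for Ggps1 (0.777) and Pmvk (0.732). Leaving out control replicate 5 moved the log2 fold change of Mvk from -2.25 to -2.40, of Sc5d from -2.26 to -2.42, of Insig1 from -1.78 to -1.95 and of Nsdhl from -1.70 to -1.86, and all 4 still passed the test. Leaving out ox-LDL replicate 2 moved Hmgcs1 from -2.60 to -2.49 and Pmvk from -1.88 to -2.27, and both still passed.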

How the results depend on the processing

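Of 802 values of a member under an alternative, 731 kept their direction and side of the threshold, 22 changed sign with no call in either analysis, 41 lost the call, 8 gained it and none reversed a call; 15 of the 18 members that fell kept the call in every alternative, and the others lost it in 10 (Ebp), 6 (Elovl6) and 11 (Elovl5) of at most 23. The medians of the 3 gene groups moved by less than 1 SD between single libraries (regulators -0.21 to -0.41, SD 0.25, and fatty acid genes -0.41 to -0.92, SD 0.68). Leaving out 1 of 5 libraries can hardly move a median past this SD, so the limit does not show that the medians are stable. The direction of the sterol, regulator and fatty acid medians held under every scaling, and the sign changes were in Scap (10 alternatives), Insig2 (11) and Acaca (1). Requiring an absolute log2 fold change above 2 left 10 members that fell, 0 that rose, and 0 lower and 1 higher of the other pathway genes. The 1 member that rose (Acss2) became 0 with library size scaling, upper-quartile scaling, limma on FPKM, limma-voom, the replicate block and without control replicate 5 and ox-LDL replicate 5 together, 2 at adjusted p below 0.05, and 0 to 1 with 1 library left out. The 2 other pathway genes that rose became 4 with DESeq2, 4 with the length trend removed, 6 at adjusted p below 0.05, 0 with limma on FPKM, 1 with library size scaling, upper-quartile scaling, no filter, the replicate block or without control replicate 5 and ox-LDL replicate 5 together, and 1 to 5 with 1 library left out (5 without ox-LDL replicate 2). The 6 that fell became 2 with library size scaling and 3 to 11 with 1 library left out (11 without ox-LDL replicate 2, 3 without control replicate 2 or ox-LDL replicate 3). Over all genes, the main analysis called 1866, DESeq2 3009, the analysis with the length trend removed 2875 and that without ox-LDL replicate 2 3257. With 1 library left out, the Elovl6 to Elovl5 log2 ratio difference ran from -0.76 to -0.34 and the Fads1 to Fads2 log2 ratio difference from 0.35 to 0.83. Both were past the threshold for ratios (adjusted p below 0.05) only without control replicate 5, at -0.76 and 0.83. With FPKM in place of CPM the first was 0.08. Same-numbered libraries of the 2 groups gave a mixed picture. Their deviations had correlations of 0.42 for replicate 3 and 0.40 for replicate 5, but 0.03, -0.25 and -0.26 for replicates 1, 2 and 4. Only control replicate 5 went best with the ox-LDL library of its own number. The numbers are not stated to mark shared animals and were not taken as pairs, though these values do not exclude pairing. With a replicate block 17 members fell and 0 rose, while over all genes 549 fell and 885 rose. The Srebf1 to Srebf2 (1.05) and Insig1 to Insig2 (-1.76) differences then had an adjusted p of 0.104 by sign flips, which for 5 pairs cannot give a p under 0.0625. The cause of these changes was not tested. Depth limits Tm7sf2 most, at 0 counts in 1 library.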
